A study of Mus musculus with 2 samples.

Results

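The regions described here are the H3K4me1 regions of pre-B cells that lie around 5 genes of the ETS transcription factor family, Ets1, Fli1, Erg, Ets2 and Spi1. They were all regions overlapping 3 windows of the mouse build mm9, namely chromosome 9 from 32200000 to 32650000 (Fli1 and Ets1), chromosome 16 from 95500000 to 96000000 (Erg and Ets2) and chromosome 2 from 90880000 to 91000000 (Spi1). The windows held 76 of the 48130 regions in the series, with 38 in the Ets1-Fli1 window, 28 in the Ets2-Erg window and 10 in the Spi1 window. They were chosen by the positions and lengths of H3K4me1 regions in this same list, since the windows were drawn with its contents in view, so every value below is a description and none is tested.

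The series compared 1 chromatin immunoprecipitation library, precipitated through H3K4me1, which is histone H3 carrying a single methyl group on lysine 4, with 1 input library made without antibody. Both came from pre-B cells of B6 mice of genotype RAG1-/- that bore an already rearranged IgM transgene, and whose bone marrow was collected at 6 to 14 weeks of age from males and females. Without the Rag1 recombinase these animals assemble no antigen receptor genes of their own, and the transgene carries B cell development to the pre-B stage. The number of animals behind each library is not given in the sources used here. With 1 library per group no spread between replicates could be measured, and a list of H3K4me1 regions holds no expression values against which the pre-B label could be checked.

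H3K4me1 marks enhancers, whether active or primed, and the flanks of active promoters. ETS factors share a DNA-binding ETS domain that recognises a GGAA core. Ets1 and Ets2 are close relatives that respond to Ras and MAP kinase signals, and Ets1 is abundant in lymphocytes. Fli1 and Erg are close relatives that act in blood stem cells, megakaryocytes and endothelium, and Erg also has a role in early B cell development. Spi1 encodes PU.1, which is needed for myeloid and early B lineage development and is controlled in part by a distal upstream enhancer. Ets1 with Fli1 and Ets2 with Erg form a pair of related loci that arose by duplication.

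The gene order recorded by RefSeq for GRCm38.p6 shows this kinship beyond the ETS genes. Along chromosome 9 the protein-coding genes run Kcnj5, Kcnj1, Fli1, Ets1 and Kirrel3, and along chromosome 16 they run Kcnj6, Kcnj15, Erg, Ets2 and Psmg1. A pair of inward-rectifier potassium channel genes thus precedes the ETS pair at both loci. Spi1 stands between Slc39a13, a zinc transporter gene, and Mybpc3, a cardiac myosin-binding protein gene. These orders are used for names alone, because GRCm38.p6 coordinates differ from those of mm9, and which region overlies which gene was not analysed here.

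The promoter sequences held for these genes, from RefSeq on GRCm38.p6, cover 2 of the 5 members, Erg with 3 starts and Ets2 with 1. The 250 bases before the outermost Erg start (chr16:95586594-95586843, minus strand) and before the Ets2 start (chr16:95702157-95702406, plus strand) are shown because these starts of the paired genes point away from each other. The second Erg start (chr16:95530366-95530615, minus strand) is shown because it held the most GGAA cores. All positions in this paragraph are on GRCm38.p6 and cannot be set against the mm9 positions elsewhere. Capitals mark the letters GGAA, the ETS core, read on either strand.
Erg outermost start: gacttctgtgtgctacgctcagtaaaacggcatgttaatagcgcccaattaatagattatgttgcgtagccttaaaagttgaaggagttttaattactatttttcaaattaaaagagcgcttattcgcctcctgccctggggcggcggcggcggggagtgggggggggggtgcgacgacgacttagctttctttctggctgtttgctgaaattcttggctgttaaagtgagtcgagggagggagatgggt
Erg second start: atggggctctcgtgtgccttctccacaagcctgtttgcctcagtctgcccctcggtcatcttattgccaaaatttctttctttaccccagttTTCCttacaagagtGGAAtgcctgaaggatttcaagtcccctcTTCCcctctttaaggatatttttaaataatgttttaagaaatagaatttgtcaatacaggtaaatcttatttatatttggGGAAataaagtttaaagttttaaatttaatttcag
Ets2 start: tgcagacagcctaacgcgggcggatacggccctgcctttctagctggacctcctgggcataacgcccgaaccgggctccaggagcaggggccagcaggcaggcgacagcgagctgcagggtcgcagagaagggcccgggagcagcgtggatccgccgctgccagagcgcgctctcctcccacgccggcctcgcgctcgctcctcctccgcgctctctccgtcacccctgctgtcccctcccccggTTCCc
The outermost Erg stretch held 0 matches to GGAA, the second Erg start held 4, the innermost held 2 and the Ets2 start held 1. Across 32851 promoter stretches of this length, 93.4% held at least 1 match and the median was 3. The Ets2 stretch was 71.6% G and C with 25 CpG pairs. The outermost Erg stretch was 48.8% G and C with 14 CpG pairs, and the second and innermost Erg stretches had 36.0% and 47.2% with 2 and 3 CpG pairs. The medians over all stretches were 52.4% and 6 CpG pairs. GAGGAA, which contains GGAA, and TGTGGT were absent on both strands of all 4 stretches, beside 23.3% and 14.0% of all promoter stretches that held them. CAGGTG occurred once, before the innermost Erg start, and in 17.2% of all stretches.

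The Ets1-Fli1 window was the most densely marked of the windows. H3K4me1 regions covered 157.7 of its 450 kb, or 35.0% of the bases. In the Ets2-Erg window they covered 113.5 of 500 kb, or 22.7%, and in the Spi1 window 25.5 of 120 kb, or 21.2%. Over the spans from first to last region of the autosomes and chromosome X, 4.3% of bases lay under a region. The windows were thus 8.15, 5.28 and 4.94 times as covered as the genome, in the order Ets1-Fli1, Ets2-Erg and Spi1. Region numbers came to 84.4 per Mb in the Ets1-Fli1 window, 56.0 in the Ets2-Erg window and 83.3 in the Spi1 window, against 18.8 per Mb over the same spans.

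**Figure D1:**
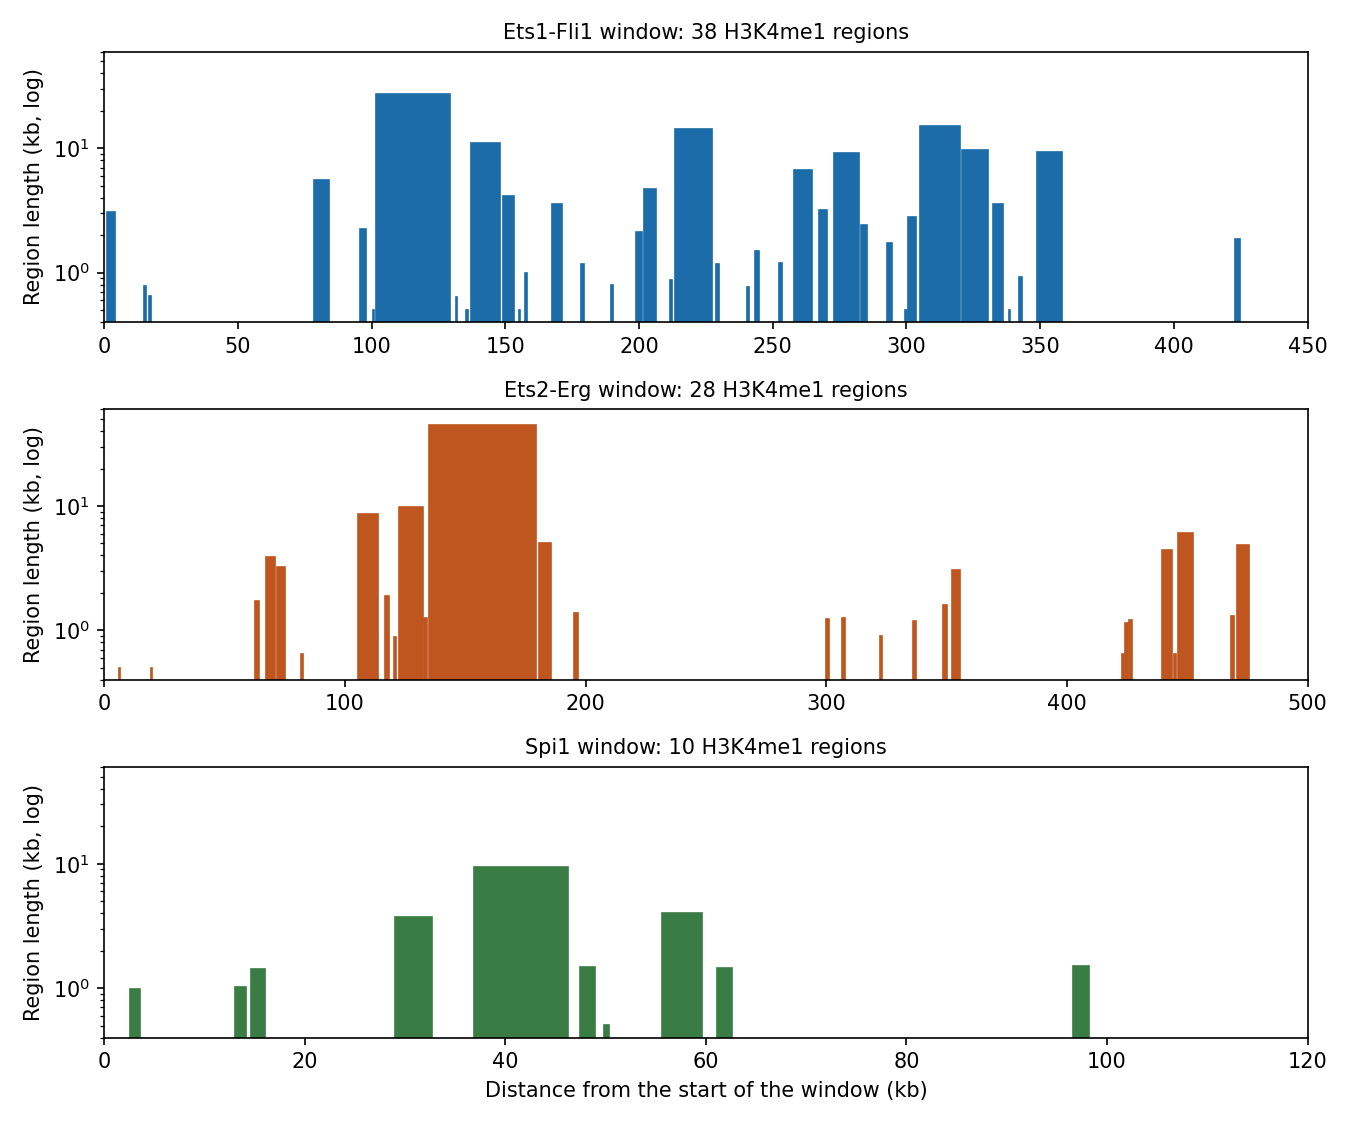
H3K4me1 regions in the Ets1-Fli1, Ets2-Erg and Spi1 windows, with the distance from the window's start in kb on the x axis and the length of each region in kb on a log axis; each bar is 1 region, as wide as the region is long. Of the 38 regions of the Ets1-Fli1 window, 34 lie in a belt of 280.1 kb with no gap over 11.9 kb, and the Ets2-Erg window has a block around its 44.7 kb region, a gap of 103.3 kb and a thinner second part.

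At the Ets1-Fli1 locus, 34 of the 38 regions formed a single domain when regions up to 12500 bases apart were joined. It ran from 32278271 to 32558327 of chromosome 9, spanned 280.1 kb and was 54.0% covered. The 151.3 kb of covered bases made it the first of 20377 domains in the genome joined at this gap. Ranks at other gaps were not taken. With gaps of up to 5 kb joined, the largest part covered 48.1 kb at Ets1-Fli1 and 72.2 kb at Ets2-Erg, the reverse order. The domain of 280.1 kb held 96.0% of all covered bases in the window. The longest stretch without a region inside the domain was 11.9 kb. The domain was bounded by unmarked stretches of 60.8 kb on its lower side and 64.4 kb on its higher side. Outside it lay 3 regions of 3085, 780 and 644 bases at the lower end of the window and 1 region of 1871 bases at the higher end, with 25.4 kb unmarked between the last of these and the window's edge.

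The belt at Ets1-Fli1 held 9 regions of at least 5 kb, which ran from 5575 bases to 27.5 kb. The longest ran from 32301619 to 32329095 and measured 27.5 kb. It was followed in length by regions of 15.1 kb (32505057 to 32520138), 14.2 kb (32413269 to 32427429) and 11.1 kb (32336935 to 32347995), and these were all the regions of at least 10 kb in the window. The fifth longest, of 9644 bases from 32520685 to 32530328, lay 546 bases beyond the end of the 15.1 kb region. Further long regions measured 9329 bases (32548999 to 32558327), 9228 bases (32473024 to 32482251), 6701 bases (32458059 to 32464759) and 5575 bases (32278271 to 32283845). These long regions lay near the lower end, in the middle and near the higher end of the belt.

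When regions were joined over gaps of up to 5 kb, the same belt broke into separate parts, and 4 of these held 5 or more regions. The lowest, from 32295705 to 32358192, spanned 62.5 kb with 9 regions and was 77.0% covered. The next ran from 32398952 to 32429958, with 5 regions over 31.0 kb at 74.4%. The third spanned 32.9 kb from 32452333 to 32485217, with 5 regions at 69.0%. The highest, from 32499520 to 32543024, held 7 regions over 43.5 kb at 75.8%. Between the lowest and the next of these parts lay 3 single regions of 3595, 1177 and 797 bases, separated by gaps of 6.94 to 10.1 kb. These 4 parts covered like shares of their own spans, and they differed mainly in extent.

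At the Ets2-Erg locus 1 domain of 8 regions, from 95605293 to 95696643, held 64.8% of the covered bases, and 8 other domains held the rest. The region from 95634827 to 95679550 of chromosome 16 measured 44.7 kb and was the only one of at least 10 kb in the window. It alone held 39.4% of the covered bases of the window. It was flanked by a region of 9830 bases (95622441 to 95632270) on the lower side and one of 5067 bases (95680617 to 95685683) on the higher side. A region of 1246 bases lay between the 9830-base region and the longest one. The gaps on either side of that short region were 590 and 720 bases, and the gap to the 5067-base region was 1066 bases. With gaps of up to 5 kb joined, 7 regions from 95605293 to 95685683 covered 89.8% of 80.4 kb. The first of these regions, 8552 bases long from 95605293 to 95613844, was next in length in the window after the 44.7 kb and 9830-base regions.

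The Ets2-Erg window was divided by an unmarked stretch of 103.3 kb, from 95696644 to 95799922. The lower side held 14 regions and 84.1 kb of covered bases, or 74.1% of the total. The higher side also held 14 regions, which covered 29.5 kb, or 25.9%. Regions of the lower side had a median length of 1803 bases and a longest of 44.7 kb, against 1242 bases and 6.05 kb on the higher side. The lower side held 4 of the 5 regions of at least 5 kb. In the RefSeq order for GRCm38.p6, Erg comes before Ets2 along the chromosome, but the sides were not assigned to the genes.

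Beyond that stretch, marking at the Ets2-Erg locus was in small groups. A group of 6 regions from 95922911 to 95952285 covered 14.1 kb and included the regions of 6053 bases (95946233 to 95952285) and 4398 bases (95939475 to 95943872). It contained 3 regions of 649, 1150 and 1216 bases that lay 716 and 499 bases apart, and 499 bases is the shortest gap between neighbouring regions anywhere in the list. The caller used a peak size of 500 bases and a minimum distance of 1000 bases between peaks. The shortest gap is therefore not read as a trait of this group. A further pair of 1306 and 4847 bases ended at 95975528. Between the 103.3 kb stretch and an unmarked stretch of 67.5 kb (95855430 to 95922910) lay 6 regions of 894 to 3032 bases. Near the lower edge of the window stood a pair of isolated regions of the shortest length, 501 bases, and an unmarked stretch of 43.0 kb followed them (95519727 to 95562729). After it came a group of 4 regions of 1720, 3879, 3252 and 649 bases, from 95562730 to 95582520.

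**Figure D2:**
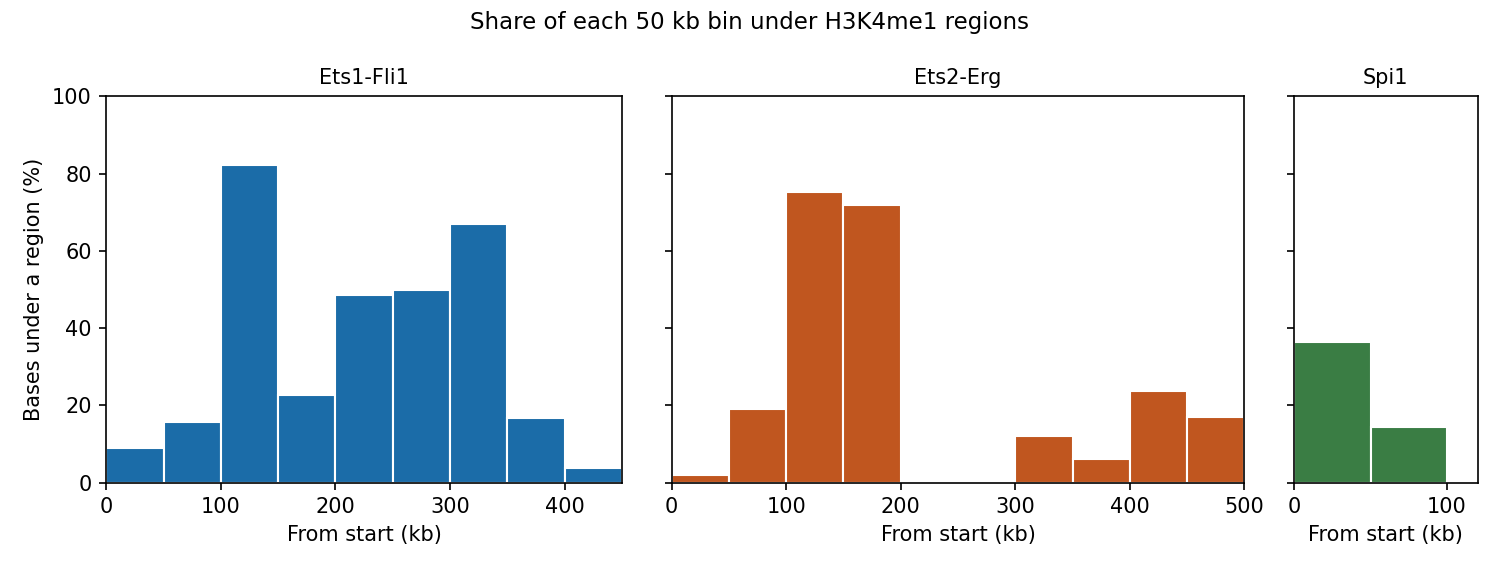
Share of bases under an H3K4me1 region in consecutive bins of 50 kb (the last Spi1 bin is shorter), with the distance from the window's start in kb on the x axis and percent covered on the y axis. In the Ets1-Fli1 window 5 neighbouring bins lie between 22.7% and 82.2%, and in the Ets2-Erg window a pair of bins at 75.2% and 72.0% is followed by bins at 0% and 0.156%.

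The covered share was 12.3 percentage points higher at Ets1-Fli1, at 35.0%, than at Ets2-Erg, at 22.7%, a ratio of 1.54. Region density was 1.51 times as high, at 84.4 per Mb for Ets1-Fli1 and 56.0 per Mb for Ets2-Erg. The longest region was shorter at Ets1-Fli1, at 27.5 kb, than at Ets2-Erg, at 44.7 kb. It took 6 regions to reach 50% of the covered bases at Ets1-Fli1 and 3 at Ets2-Erg. With the longest region of each window left out, the covered share was 28.9% at Ets1-Fli1 and 13.8% at Ets2-Erg, a difference of 15.2 points. Joining regions up to 12500 bases apart gave 3 domains in the Ets1-Fli1 window and 9 in the Ets2-Erg window, but this contrast depended on the joining. It was 14 for Ets1-Fli1 and 14 for Ets2-Erg at gaps of up to 5 kb, 3 and 4 at up to 25 kb, and 6 and 6 for regions of at least 1000 bases. The window edges were set by the choice of windows, and over the span from first to last region the shares were 37.2% at Ets1-Fli1 and 24.2% at Ets2-Erg. With each window widened by 100 kb on both sides they were 25.1% at Ets1-Fli1 and 18.6% at Ets2-Erg, a difference of 6.52 points. With 1 library, none of these differences has a replicate error to be set against.

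The loci also had features in common. Regions of at least 5 kb held 68.7% of the covered bases at Ets1-Fli1 and 65.4% at Ets2-Erg. This share was not taken over the whole list, so the likeness has no background to be set against. Neighbouring regions were a median of 2.41 kb apart at Ets1-Fli1 and 2.75 kb apart at Ets2-Erg, against 8.87 kb in the whole series. The Spi1 window, which is outside the pair, also lay below the series, at 4.15 kb. All 3 windows held more regions per Mb than the series, so short gaps are not particular to the paired loci. Gaps under 1 kb, which split neighbouring regions by a short dip, made up 6 of 37 gaps at Ets1-Fli1, 6 of 27 at Ets2-Erg and 2 of 9 at Spi1. In the whole list 11.9% of gaps were this short. The Wilson 95% intervals were wide, at 7.65 to 31.1% for Ets1-Fli1, 10.6 to 40.8% for Ets2-Erg and 6.32 to 54.7% for Spi1. Neither a likeness to the list nor a difference from it is read from them. These intervals, and those given below, treat regions or gaps as independent and cover counting error only.

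**Figure D3:**
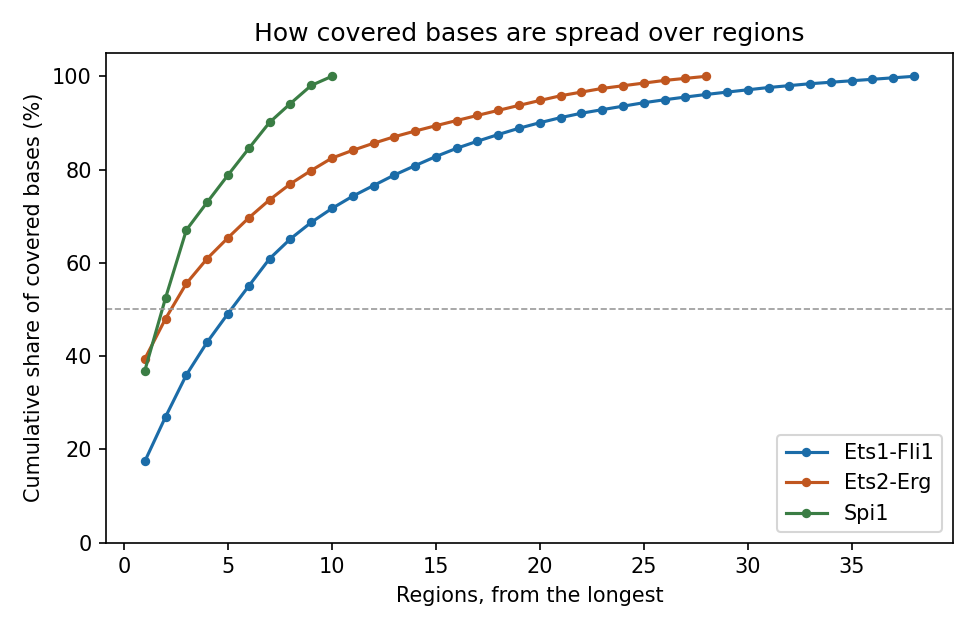
Cumulative share of the covered bases of each window (y axis, percent) against the number of regions counted from the longest (x axis), with 1 point per region and a dashed line at 50%. The Ets2-Erg curve starts at 39.4% with its first region, the Spi1 curve at 36.9% and the Ets1-Fli1 curve at 17.4%.

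The Spi1 window held a compact group of regions in its middle part. The 6 regions from 90909023 to 90942562 of chromosome 2 formed a domain of 33.5 kb that was 61.1% covered and held 80.6% of the covered bases of the window. Its longest region, 9387 bases from 90916880 to 90926266, was the only one of at least 5 kb and held 36.9% of the covered bases. On its lower side lay a region of 3703 bases (90909023 to 90912725), 4.15 kb away. On its higher side came regions of 1484 bases (90927483 to 90928966) and 501 bases (90929796 to 90930296), separated from it and from each other by 1216 and 829 bases. The domain ended with regions of 3980 bases (90935658 to 90939637) and 1453 bases (90941110 to 90942562), 1472 bases apart.

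The other 4 regions of the Spi1 window were short. A region of 988 bases lay at 90882537 to 90883524. It was followed by neighbours of 1027 bases (90893057 to 90894083) and 1424 bases (90894600 to 90896023), 516 bases apart. These 3 regions lay 13.0 kb below the domain at the nearest. An unmarked stretch of 34.1 kb (90942563 to 90976648) separated the domain from the last region, of 1510 bases (90976649 to 90978158), after which 21.8 kb were unmarked up to the window's edge. The Spi1 domain ranked 987th of 20377 by covered bases. The largest domain at Ets2-Erg, 91.4 kb long with 8 regions, ranked 45th with 73.6 kb covered.

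Region lengths within the windows ran from 501 bases to 44.7 kb. The median length was 1999 bases at Ets1-Fli1, 1347 bases at Ets2-Erg and 1469 bases at Spi1, against 1497 bases in the series. Regions of at least 5 kb numbered 9 of 38 at Ets1-Fli1 (23.7%, Wilson 95% interval 13.0 to 39.2%), 5 of 28 at Ets2-Erg (17.9%, 7.88 to 35.6%) and 1 of 10 at Spi1 (10.0%, 1.79 to 40.4%). In the series they made up 8.92%. Regions of at least 10 kb numbered 4 at Ets1-Fli1 (10.5%), 1 at Ets2-Erg (3.57%) and 0 at Spi1, against 2.15% of the series. Regions of 501 bases, the floor set by the caller's peak size, numbered 5 at Ets1-Fli1 (13.2%), 2 at Ets2-Erg (7.14%) and 1 at Spi1 (10.0%), against 14.3% of the series. The windows were drawn with these lengths in view, so nothing further is read from the shares.

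The surroundings of the windows were marked to different degrees. In the 1 Mb on each side of the Ets1-Fli1 window, regions covered 2.05% of bases on the lower side and 1.63% on the higher side, with 9 and 8 regions. The Ets2-Erg window had flanks covered at 6.79% and 7.55%, with 36 and 40 regions. The Spi1 window had flanks at 13.6% and 7.29%, with 32 and 38 regions, and its lower flank held a region of 34.9 kb that was longer than any within the window. Each window was more covered than the average of either 1 Mb flank, at 35.0% for Ets1-Fli1, 22.7% for Ets2-Erg and 21.2% for Spi1. The windows are smaller than the flanks, at 450, 500 and 120 kb in the same order, and were placed around marked genes. Stretches of window size within the flanks were not taken. Whether a flank holds a stretch as covered as its window is therefore not shown.

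All non-overlapping tiles of the same size, laid along the autosomes and chromosome X, gave the background for the covered shares. Of 5683 tiles of 450 kb, 10 (0.176%) were at least as covered as the Ets1-Fli1 window, and the median tile was 1.42% covered. Of 5116 tiles of 500 kb, 106 (2.07%) were at least as covered as the Ets2-Erg window, beside a median of 1.59%. Of 21344 tiles of 120 kb, 1060 (4.97%) reached the share of the Spi1 window, and 10890 such tiles held no region. Tiles overlapping the windows themselves were kept. Ranked by the number of regions instead, 1.25% of tiles reached the Ets1-Fli1 window, 8.99% the Ets2-Erg window and 5.38% the Spi1 window. These places describe windows that were picked and placed around marked genes and are not tests.

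**Figure D4:**
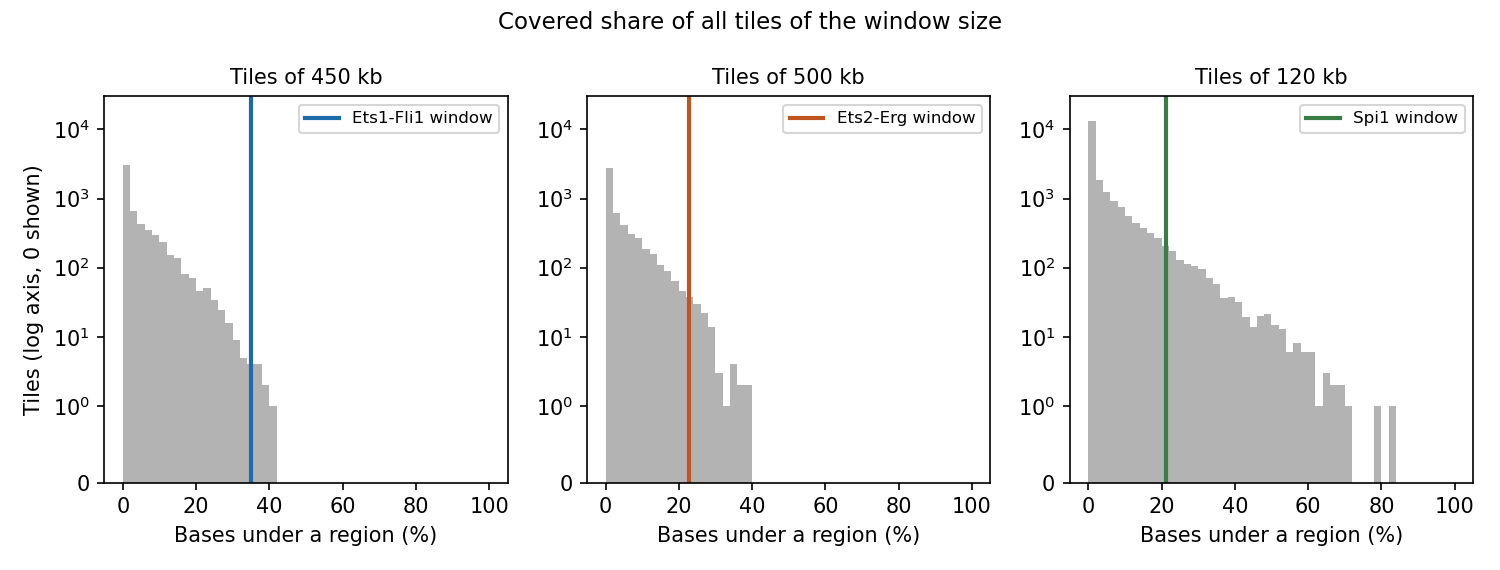
Number of tiles (y axis, log scale with 0 shown) by percent of bases under an H3K4me1 region (x axis), for tiles of 450, 500 and 120 kb; the coloured line is the window of that size. The lines stand at 35.0% for Ets1-Fli1, 22.7% for Ets2-Erg and 21.2% for Spi1.

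The deposited list has an order, while its score is constant. Place in the list followed region length closely but not exactly, with a Spearman rank correlation of -0.97 across the 48130 regions. These regions share 1 library and are not replicates. Which quantity orders the list is not stated in the sources used here, so places are given as a description. The 44.7 kb region at Ets2-Erg stood at place 5, and the 27.5 kb region at Ets1-Fli1 at place 27. The first 1000 places, 2.08% of the list, held 4 regions of the Ets1-Fli1 window, 1 of the Ets2-Erg window and 1 of the Spi1 window.

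Regions of like length could stand far apart in the list. Each region was set beside all regions whose length lay within 10% of its own. At Ets1-Fli1 the 14.2 kb region (32413269 to 32427429) stood at place 168, and its like had a median place of 461. The 11.1 kb region (32336935 to 32347995) stood at place 1447, behind a median of 901 for its like. At Ets2-Erg the 3879-base region (95567196 to 95571074) stood at place 13984, far behind a median of 6948. The 9387-base region at Spi1 stood at place 663, ahead of a median of 1302. Among all members, 20 of 38 regions at Ets1-Fli1, 16 of 28 at Ets2-Erg and 5 of 10 at Spi1 had more than 50% of their like before them. Each region is ranked among its own like, so about 50% of any large set is placed this way by construction. The share over the whole list was not taken, and nothing is read from these counts.

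**Figure D5:**
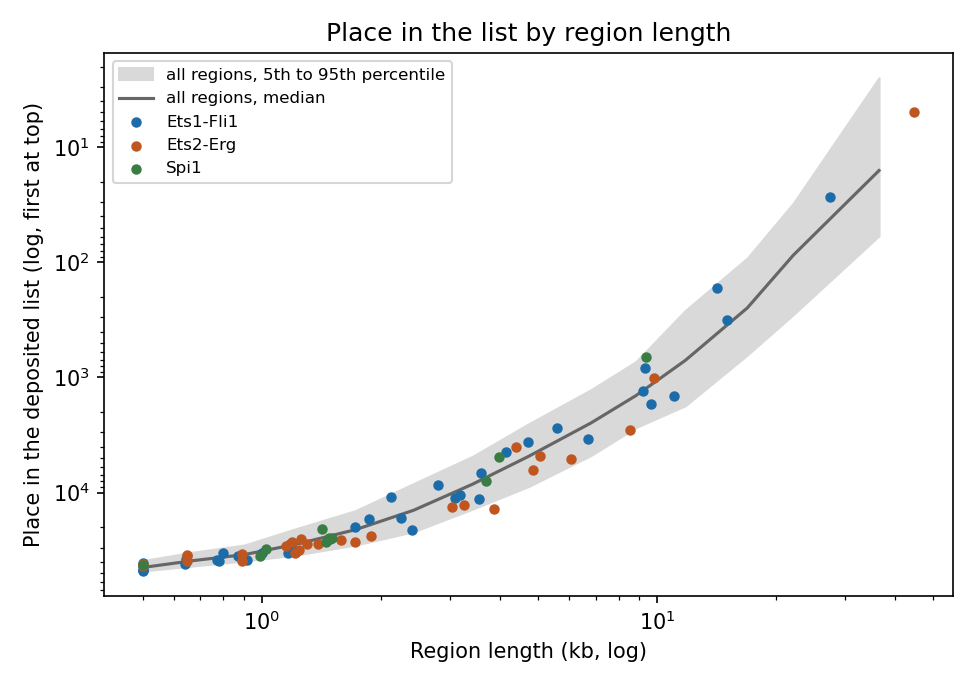
Place in the deposited list (y axis, log scale, first place at the top) against region length in kb (x axis, log scale); points are the 76 regions of the windows, the grey line is the median place of all regions by length and the grey band runs from the 5th to the 95th percentile. The 44.7 kb region at Ets2-Erg stands at place 5 and the 9387-base region at Spi1 at place 663.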

How the data were processed

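Bowtie 0.12.9, HOMER 4.7 and the build mm9 were used, per the submitters' processing notes. Per the file headers, the authors called regions with findPeaks in histone style from 50945360 H3K4me1 tags against the input, using peaks of 500 bases, at least 26 tags per peak and 4-fold enrichment over input, and stitched neighbouring peaks. How many tags the input held is not given in the sources used here, and they entered only through this calling. The score deposited by the authors is 1 for every region, so no region carries a tag count or fold. Region start and end positions are in bases and are printed counting from 1.

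Regions overlapping each window were counted, and covered bases were cut at the window edges. Domains joined regions up to 12500 bases apart within the window, and genome-wide for ranks. Tiles started at the first region of each chromosome. In each window the 5 longest regions, all regions of at least 10 kb and the 3 longest unmarked stretches were named, and all regions where there were 20 or fewer. Members, windows and lists were chosen with earlier results of these data known. The place in the list and the flanks were added after seeing the file. The other ETS family genes need mm9 gene positions and were not analysed here. Counting functions were tested on simulated data. Python 3.11.15, numpy 2.4.6, pandas 2.3.3, scipy 1.17.1 and matplotlib 3.10.9 were used.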

Additional observations from a re-analysis of the deposited data

How the results depend on the processing

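No paired analysis was possible because each group has 1 library, and no replicate could be left out. Of 50 alternative values, 28 stayed within set limits and 22 moved. The limit was 1.5 times for a count or length. For a share it was the counting interval over bases or tiles taken as independent, so small shifts in covered share counted as moved. Differences between the paired loci counted as moved unless equal after rounding. The difference in regions per Mb, which has another unit, was held to the same rule. In covered share and in region density, Ets1-Fli1 stayed above Ets2-Erg under each alternative run: the Ets1-Fli1 share minus the Ets2-Erg share was 12.3 points, and 11.5 for regions of at least 1000 bases, 13.0 over the span from first to last region, 15.2 without the longest regions and 6.52 with windows widened by 100 kb on both sides; in regions per Mb the difference was 28.4. With regions of at least 1000 bases the covered shares were 33.3% for Ets1-Fli1, 21.8% for Ets2-Erg and 19.97% for Spi1. The runs without the longest regions and those with widened windows were added after seeing the data. Widening gave shares of 25.1%, 18.6% and 12.2% in the same order. Domain numbers depended on the joining gap: 14 for Ets1-Fli1, 14 for Ets2-Erg and 5 for Spi1 at 5 kb, and 3, 4 and 2 at 25 kb. Regions of at least 1000 bases gave 6 domains for Ets1-Fli1 and 6 for Ets2-Erg, so the contrast of 3 with 9 domains shrank to 3 with 4 or vanished under these alternatives. Broad regions numbered 4, 1 and 0 at a limit of 10 kb in place of 5 kb. Tiles ranked by region number placed 1.25%, 8.99% and 5.38% of tiles at or above the windows. The first Ets1-Fli1 domain continues below the window's lower edge. Signal per region was not used here, so regions near the calling threshold are unknown.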
